A study of Mus musculus with 27 samples.

Results

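The tumour suppressor p53, encoded in the mouse by Trp53, and 9 of its direct target genes were followed in single mouse embryos collected at embryonic day (E)8.5. The group was chosen by gene name from the RNA-Seq table, with Trp53, Mdm2, Cdkn1a, Ccng1, Zmat3, Sesn2, Trp53inp1, Bax, Bbc3 and Eda2r found as 10 of the 24065 genes listed. The study compared 3 WT embryos with 3 Dnmt3b-/- embryos, all C57BL/6J, and the question addressed here is whether embryos that lack the DNA methyltransferase DNMT3B showed a transcript response of the p53 pathway at this stage, before the lethality of the mutation. The Dnmt3b-/- embryos carried a catalytically inactive allele, made by crossing a floxed line to an ACTB-Cre deleter line that is active throughout the embryo, so that the deletion is not restricted to a tissue. They were littermates of the WT embryos, from matings of heterozygous parents. Each library was made from the total RNA of 1 whole embryo, so that fewer cells of a type and less RNA per cell cannot be told apart.

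p53 is a transcription factor that is held at a low level because its target gene Mdm2 encodes the ubiquitin ligase that marks it for degradation. DNA damage and other stresses activate kinases that release p53 from MDM2, and p53 then binds response elements near genes of cell cycle arrest, repair, feedback and apoptosis. In the mouse embryo around gastrulation, cells are known to be sensitive to p53-dependent apoptosis. Because p53 activity is controlled mostly at the level of the protein, the transcript of Trp53 itself is not a measure of that activity, and the target genes are the usual readout.

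A p53 response element consists of a pair of 10-base motifs, each with a core of 4 bases that begins with C and ends with G. The consensus was searched without a spacer on both strands within 3000 bases of the most upstream RefSeq start site of each gene in the mouse genome assembly GRCm38.p6 (mm10), with at most 2 mismatches and with the C and G of both cores intact. Such a sequence was found in 5 of the 10 genes, and in 1451 of 23880 genes (6.08%) overall. With at most 1 mismatch it was found in 3 of the 10 genes and in 1.02% of all genes. The sites are shown because they are the DNA through which p53 could act on these genes, and both cores are printed in capitals. Each is written 5′ to 3′ on the strand given.
Cdkn1a, chr17:29090928-29090947, plus strand, 42 bases upstream of the gene, 1 mismatch: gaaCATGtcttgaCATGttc
Ccng1, chr11:40755462-40755481, minus strand, 186 bases upstream of the gene, 1 mismatch: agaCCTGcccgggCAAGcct
Ccng1, chr11:40754936-40754955, minus strand, intron, 1 mismatch: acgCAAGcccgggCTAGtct
Zmat3, chr3:32364331-32364350, minus strand, intron, 0 mismatches: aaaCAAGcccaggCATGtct
Bax, chr7:45466574-45466593, minus strand, intron, 2 mismatches: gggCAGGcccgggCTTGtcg
Eda2r, chrX:97376534-97376553, minus strand, intron, 2 mismatches: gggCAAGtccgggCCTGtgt

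The Zmat3 sequence matched the consensus at every base, which held for 29 of all genes (0.121%). In Ccng1 the site upstream of the gene and the site in the intron lay on either side of the start. These matches describe the letters in the window and are no measure of binding in the embryo.

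The libraries held between 41489332 and 58470286 raw counts on genes. A detection limit of 3 counts lay at 2.37 to 3.49 normalized counts, where a normalized count is the raw count scaled by the TMM factors and the library total to the mean library of the 6 embryos. The raw counts of Dnmt3b, summed over deleted and remaining exons alike, were 9197, 12195 and 7120 in WT embryos 1, 2 and 3 and 4068, 3904 and 4196 in the Dnmt3b-/- embryos. The Dnmt3b-/- embryos were all below the WT embryos, with a log2 fold change of -1.04 with a standard error of 0.27 (adjusted p = 0.0169 by edgeR's quasi-likelihood test). Dnmt3b was highest in WT embryo 2, without which the log2 fold change was -0.61 (adjusted p = 0.00260 by edgeR). Markers of neural ectoderm, paraxial mesoderm, heart, endothelium and gut were detected in all 6 embryos. The defining trophoblast markers Tpbpa, Prl3d1 and Prl2c2 and the decidual markers Prl8a2 and Prl3c1 were at 0 counts in every embryo, while the others of both lists were detected. The summed level of the 8 trophoblast markers was 655 to 1140 normalized counts in WT and 834 to 1683 in Dnmt3b-/- embryos, and that of the 6 decidual markers 1310 to 1561 and 1494 to 1842, with no marker of either list called. Their part in the results was not tested. The summed level of 8 yolk sac endoderm markers was 178934 normalized counts in WT embryo 2, against 20475 and 56764 in the other WT embryos and 11281 to 40981 in the Dnmt3b-/- embryos. WT embryo 2 thus stood apart in these markers, and results that rest on it are also given without it.

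The 10 genes were all expressed, and their order by length-corrected level (FPKM) in WT embryos began with the cell death gene Bax at 46.1 ± 2.3 FPKM (SD, n = 3) and Trp53 at 34.5 ± 3.0 FPKM. Mdm2 at 19.9 ± 0.9 FPKM and Ccng1 at 19.0 ± 2.3 FPKM followed, with ranges that overlapped. Sesn2 was at 5.29 ± 0.53 FPKM, Trp53inp1 at 3.47 ± 0.18 FPKM and Zmat3 at 2.60 ± 0.38 FPKM. Bbc3, Eda2r and Cdkn1a were lowest, at 1.54 ± 0.29, 1.16 ± 0.44 and 1.06 ± 0.30 FPKM, and neighbours among these lowest genes could not be ordered beyond their spread. Cdkn1a, the gene most used as a readout of p53 activity, was therefore the least abundant of the 10 genes by mean in WT embryos. In Dnmt3b-/- embryos Trp53 was first at 41.5 ± 0.9 FPKM, and Bbc3 was last at 0.626 ± 0.272 FPKM. Ccng1, Bax and Mdm2 at 31.2, 30.6 and 26.6 FPKM came after Trp53, and each overlapped the next in range.

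In the comparison of the genotypes, the transcripts of Trp53, Mdm2, Ccng1, Trp53inp1 and Eda2r were higher and those of Bax and Bbc3 lower in Dnmt3b-/- embryos (adjusted p below 0.05, edgeR's quasi-likelihood test over 15114 genes with Benjamini-Hochberg adjustment). The largest differences were those of the TNF receptor family gene Eda2r, 2.34-fold higher, and of the apoptosis effector gene Bbc3, 2.35-fold lower. Cdkn1a, Zmat3 and Sesn2 did not pass the test. After the transcript GC content and length were corrected for, Trp53 and Mdm2 remained higher and no other member was called. Among the targets called without that correction, the feedback genes Mdm2 and Ccng1 were on the higher side, as were Trp53inp1 and Eda2r. The death genes Bax and Bbc3 were on the lower side without the correction. With it, their log2 fold changes were 0.06 and -0.52, and neither was called.

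These counts stand against a broad difference between the genotypes. Of all 15114 genes tested, 17.6% were called higher and 18.1% lower in Dnmt3b-/- embryos, against 5 higher and 2 lower of the 10 p53 genes. With a fold change above 2 in addition, 2.12% of all genes were higher and 3.78% lower, against 1 higher (Eda2r) and 1 lower (Bbc3) of the 10. The Dnmt3b-/- embryos lay entirely above or below the WT embryos for 8 of the 10 genes, 5 higher and 3 lower, where 51.8% of all genes had no overlap in either direction. The median log2 fold change was 0.31 over the 10 genes and -0.03 over all genes. After the correction for GC content and length, 1869 of all 15114 genes were higher and 1594 lower, against 2 and 0 of the 10. An exact permutation test on 3 and 3 embryos has 0.1 as its lowest p and was not used.

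**Figure D1:**
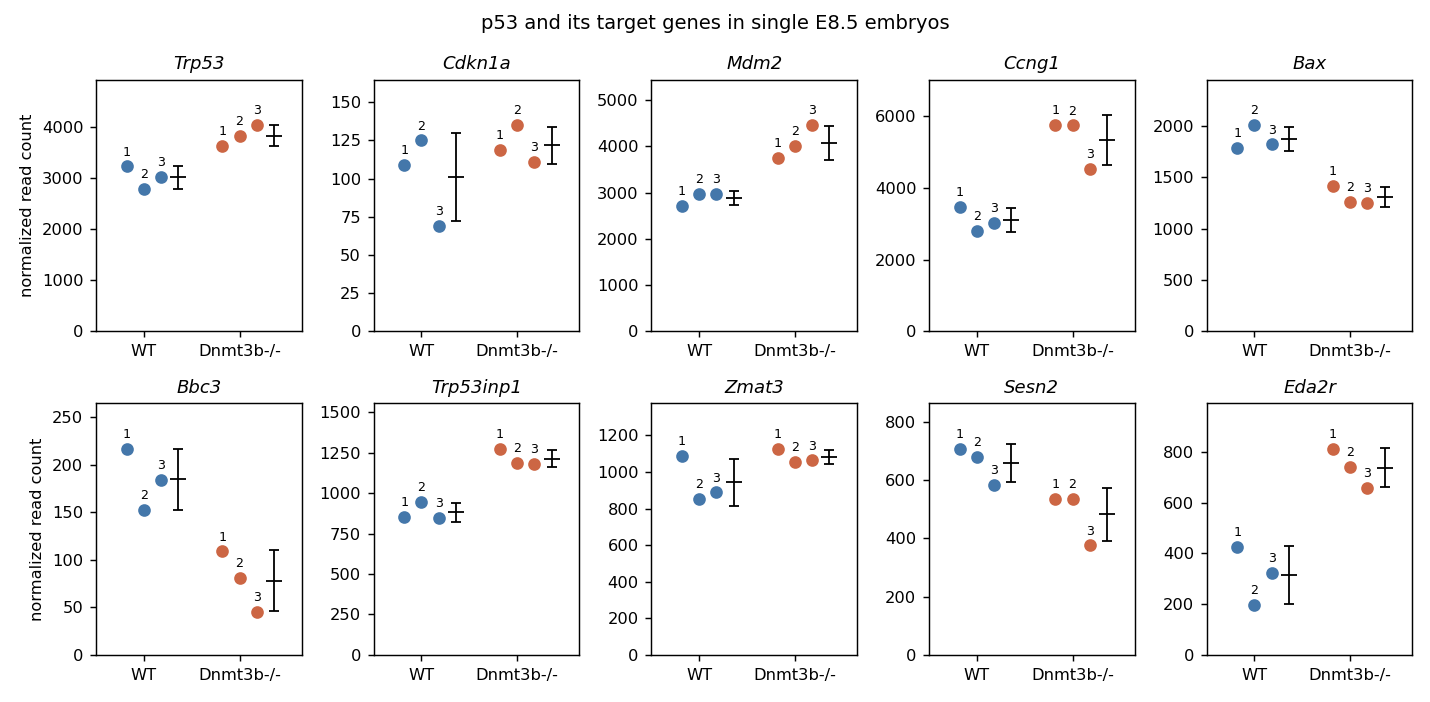
Normalized read counts (y axis, linear from 0) of the 10 genes in each of 3 WT (blue) and 3 Dnmt3b-/- (orange) embryos, numbered by embryo, with the mean and SD of each group as a bar. The groups overlap for Cdkn1a and Zmat3 only, and the Dnmt3b-/- embryos lie above the WT embryos for 5 genes and below them for Bax, Bbc3 and Sesn2.

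Trp53 (mm10 chr11:69580359-69591873, plus strand) had 3229, 2790 and 3014 normalized counts in WT embryos 1, 2 and 3 and 3622, 3820 and 4037 in Dnmt3b-/- embryos 1, 2 and 3. The Dnmt3b-/- embryos were all above the WT embryos, and the spread within each genotype was small. The transcript of Trp53 was 1.27-fold higher in the mutants, a log2 fold change of 0.35 with a standard error of 0.079 (adjusted p = 0.0108 by edgeR's quasi-likelihood test). With the correction for GC content the log2 fold change of Trp53 was 0.58 (adjusted p = 0.00767 by edgeR), larger than without it. Without Dnmt3b-/- embryo 2 the adjusted p was 0.0501 by the same test, while the log2 fold change stayed at 0.35. Over 16 alternative fits Trp53 was called in 15, with log2 fold changes from 0.27 to 0.58.

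Mdm2 (chr10:117688875-117710758, minus strand), which encodes the main inhibitor of p53 and is itself induced by p53, had 2711, 2967 and 2979 normalized counts in WT embryos, against 3746, 4007 and 4461 in Dnmt3b-/- embryos. All Dnmt3b-/- embryos exceeded all WT embryos. Mdm2 was 1.41-fold higher, a log2 fold change of 0.50 with a standard error of 0.084 (adjusted p = 0.00301 by edgeR's quasi-likelihood test). It was the one member called in 16 of 16 alternative fits. The log2 fold change of Mdm2 was 0.34 with the correction for GC content (adjusted p = 0.0269 by edgeR).

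Ccng1 (chr11:40748552-40755286, minus strand), which encodes cyclin G1, a p53 target that recruits a phosphatase to MDM2, had 3469, 2804 and 3016 normalized counts in WT embryos, against 5752, 5744 and 4531 in Dnmt3b-/- embryos. The groups were well apart, and Dnmt3b-/- embryo 3 was lower than the other Dnmt3b-/- embryos. The increase was 1.73-fold, a log2 fold change of 0.79 with a standard error of 0.12 (adjusted p = 0.00185 by edgeR's quasi-likelihood test), and the adjusted p was the smallest among the 10 genes. The correction for GC content left a log2 fold change of 0.35 for Ccng1 (95% interval 0.05 to 0.65, adjusted p = 0.0860 by edgeR), and the call was lost.

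Cdkn1a (chr17:29090979-29100722, plus strand), which encodes the cyclin-dependent kinase inhibitor p21 of the G1 arrest, had 109, 125 and 69 normalized counts in WT embryos, against 119, 135 and 111 in Dnmt3b-/- embryos. The groups overlapped, and WT embryo 3 was lowest. The log2 fold change of Cdkn1a was 0.27 (95% interval -0.38 to 0.92, adjusted p = 0.495 by edgeR's quasi-likelihood test), an interval that includes no difference and also the increase seen for Ccng1. It was 0.06 without WT embryo 3 and 0.45 without WT embryo 2. The log2 fold change was 0.54 with the correction for GC content (adjusted p = 0.211 by edgeR). The site printed above lies 42 bases upstream of the most upstream RefSeq start of Cdkn1a, a gene of low level here. The counts are of the whole gene and do not tell its start sites apart.

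Zmat3 (chr3:32334792-32365665, minus strand), which encodes a zinc finger RNA-binding protein induced by p53, had 1089, 854 and 888 normalized counts in WT embryos, against 1127, 1057 and 1063 in Dnmt3b-/- embryos. WT embryo 1 lay within the range of the Dnmt3b-/- embryos. The log2 fold change of Zmat3 was 0.20 (95% interval -0.08 to 0.47, adjusted p = 0.240 by edgeR's quasi-likelihood test). It was called in 0 of 16 alternative fits. The Zmat3 exons share 162 bases with the antisense gene 4930429B21Rik, which had 344 raw counts over all embryos, where Zmat3 had 746 to 1379 in each. The gene with the response element of 0 mismatches was thus not called.

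Sesn2 (chr4:132492804-132510456, minus strand), which encodes the stress protein sestrin 2, an inhibitor of mTORC1 signalling, had 708, 681 and 584 normalized counts in WT embryos, against 536, 535 and 376 in Dnmt3b-/- embryos. All Dnmt3b-/- embryos were below all WT embryos, but the test was not passed. The log2 fold change of Sesn2 was -0.45 (standard error 0.17, adjusted p = 0.0725 by edgeR's quasi-likelihood test), and it turned to 0.13 with the correction for GC content (adjusted p = 0.532 by edgeR).

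Trp53inp1 (chr4:11156441-11174379, plus strand), which encodes a nuclear stress protein that promotes p53 activity and autophagy, had 851, 948 and 846 normalized counts in WT embryos, against 1275, 1186 and 1182 in Dnmt3b-/- embryos. The groups were apart and narrow. The transcript was 1.38-fold higher without correction, a log2 fold change of 0.46 with a standard error of 0.10 (adjusted p = 0.00900 by edgeR's quasi-likelihood test). The direction of Trp53inp1 flipped with the correction for GC content, to -0.06 (95% interval -0.30 to 0.18, adjusted p = 0.715 by edgeR). Of the 10 genes it had the lowest exonic GC content, 38.8%.

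Bax (chr7:45461695-45466898, minus strand), which encodes the BCL2 family protein that permeabilises the mitochondrial outer membrane, had 1790, 2011 and 1822 normalized counts in WT embryos, against 1419, 1261 and 1248 in Dnmt3b-/- embryos. All Dnmt3b-/- embryos were below the WT embryos. Bax was 1.43-fold lower without correction, a log2 fold change of -0.52 with a standard error of 0.099 (adjusted p = 0.00505 by edgeR's quasi-likelihood test). After correction for GC content the log2 fold change of Bax was 0.06 (95% interval -0.16 to 0.28, adjusted p = 0.701 by edgeR), so that neither the direction nor the call held.

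Bbc3 (chr7:16309583-16318334, plus strand), which encodes the BH3-only protein PUMA, a trigger of p53-dependent apoptosis, had 217, 153 and 184 normalized counts in WT embryos, against 109, 81 and 45 in Dnmt3b-/- embryos. The Dnmt3b-/- embryos were all lower, and they also differed among themselves. The decrease was 2.35-fold, a log2 fold change of -1.23 with a standard error of 0.34 (adjusted p = 0.0222 by edgeR's quasi-likelihood test). The adjusted p was 0.0864 without WT embryo 1, 0.0536 without WT embryo 3 and 0.0678 without Dnmt3b-/- embryo 2 by the same test, and without Dnmt3b-/- embryo 3 the log2 fold change was -0.94. The corrected log2 fold change of Bbc3 was -0.52 (95% interval -1.17 to 0.14, adjusted p = 0.227 by edgeR). The neighbour Sae1, 1.90 kb away, differed by a log2 fold change of -0.25 (adjusted p = 0.0317 by edgeR), and Ccdc9 on the other side by -0.17 (adjusted p = 0.247 by edgeR).

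Eda2r (chrX:97333841-97377209, minus strand), which encodes a receptor of the TNF receptor family for the ectodysplasin isoform EDA-A2 and is a p53 target, had 424, 196 and 323 normalized counts in WT embryos, against 812, 742 and 659 in Dnmt3b-/- embryos. The groups were far apart, and WT embryo 2, the embryo with the most yolk sac marker RNA, was lowest. The increase was 2.34-fold, a log2 fold change of 1.23 with a standard error of 0.26 (adjusted p = 0.00723 by edgeR's quasi-likelihood test). Without WT embryo 2 the log2 fold change of Eda2r was 0.98, still called but under a fold of 2. The correction for GC content gave 0.75 (95% interval 0.16 to 1.34, adjusted p = 0.0705 by edgeR).

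Eda2r was the 1 member on the X chromosome. Xist, the RNA of the inactive X chromosome, was at 14670, 5 and 13449 normalized counts in WT embryos, against 11, 21847 and 3 in Dnmt3b-/- embryos, and the labels give no sex for these embryos. The Y-linked gene Ddx3y was at 5, 4526 and 0 normalized counts in WT embryos, against 4140, 5 and 4805 in Dnmt3b-/- embryos. Eif2s3y, Kdm5d and Uty had the same pattern. WT embryo 2 and Dnmt3b-/- embryos 1 and 3 thus had the RNA pattern of males, so that sex was not balanced between the genotypes. Among the WT embryos the one with little Xist had the lowest Eda2r level, whereas the Dnmt3b-/- embryo with a high Xist level lay between the other two Dnmt3b-/- embryos. With the log2 Xist level as a covariate, a fit added after seeing the data, the log2 fold change of Eda2r was 1.42 (adjusted p = 0.00446 by edgeR). The tested gene Gpr165, 614 kb away, did not pass the test (log2 fold change 0.80, adjusted p = 0.216 by edgeR).

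**Figure D2:**
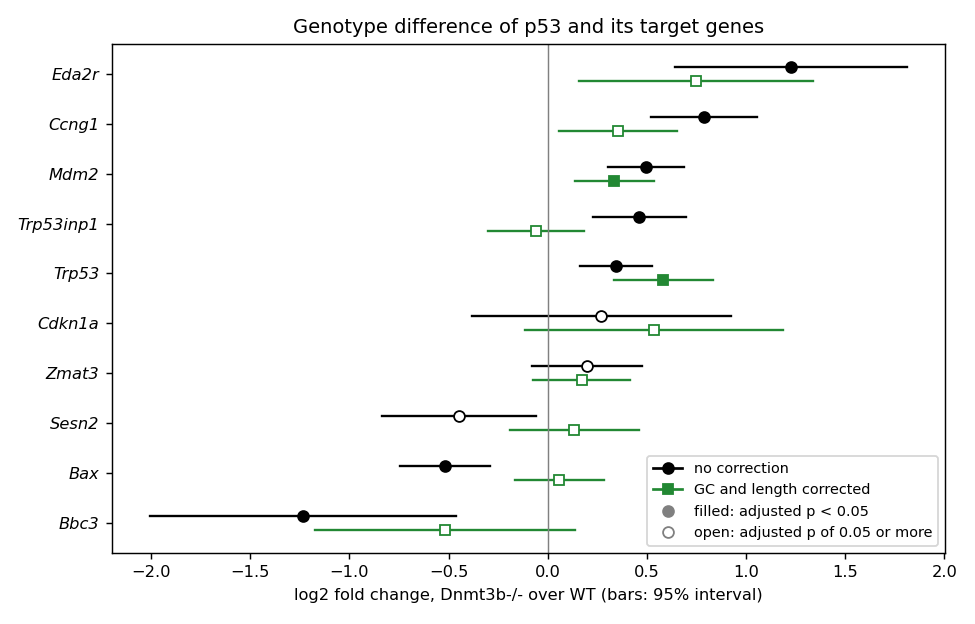
Log2 fold change between the genotypes, Dnmt3b-/- over WT (x axis) with its 95% interval for each of the 10 genes, without correction (black circles) and with the correction for GC content and length (green squares), filled where the adjusted p was below 0.05. Without correction 7 genes are filled, and with it Trp53 and Mdm2 are filled and Bax, Sesn2 and Trp53inp1 have changed sides.

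The members at both ends of GC content differed in the direction of the trend of all genes with base content, though not all to its extent. The AT-rich transcripts Trp53inp1, Eda2r and Ccng1, with 38.8%, 39.4% and 40.8% exonic GC, were called higher without correction, and so were Mdm2 with 46.3% and Trp53 with 54.0%. The GC-rich transcripts Bax, Sesn2 and Bbc3, with 59.0%, 59.6% and 63.6%, were the 3 members with values below 0. The same trend held over all tested genes, whose median log2 fold change fell from 0.42 in the bin of lowest GC content (median 38.8%) to -0.68 in the bin of highest (median 61.6%). Trp53inp1, Bax and Sesn2 lay near the median of genes of like GC content. Eda2r at 1.23 and Ccng1 at 0.79 lay above the upper quartiles of the bins at 38.8% and 41.2% GC, 0.66 and 0.57. Mdm2 at 0.50 lay above the upper quartile of the bin at 46.1% GC, 0.40. Bbc3 at -1.23 lay below the lower quartile of the bin at 61.6% GC, -1.05. Trp53, with 54.0% GC, lay above the upper quartile of the bin at 53.7% GC, which had a median of -0.25 and an upper quartile of 0.09. Cdkn1a, with 54.4% GC, lay above the upper quartile of the bin at 54.6% GC, which had a median of -0.29 and an upper quartile of 0.10. Whether the trend with GC content came from the libraries or from the embryos was not tested.

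**Figure D3:**
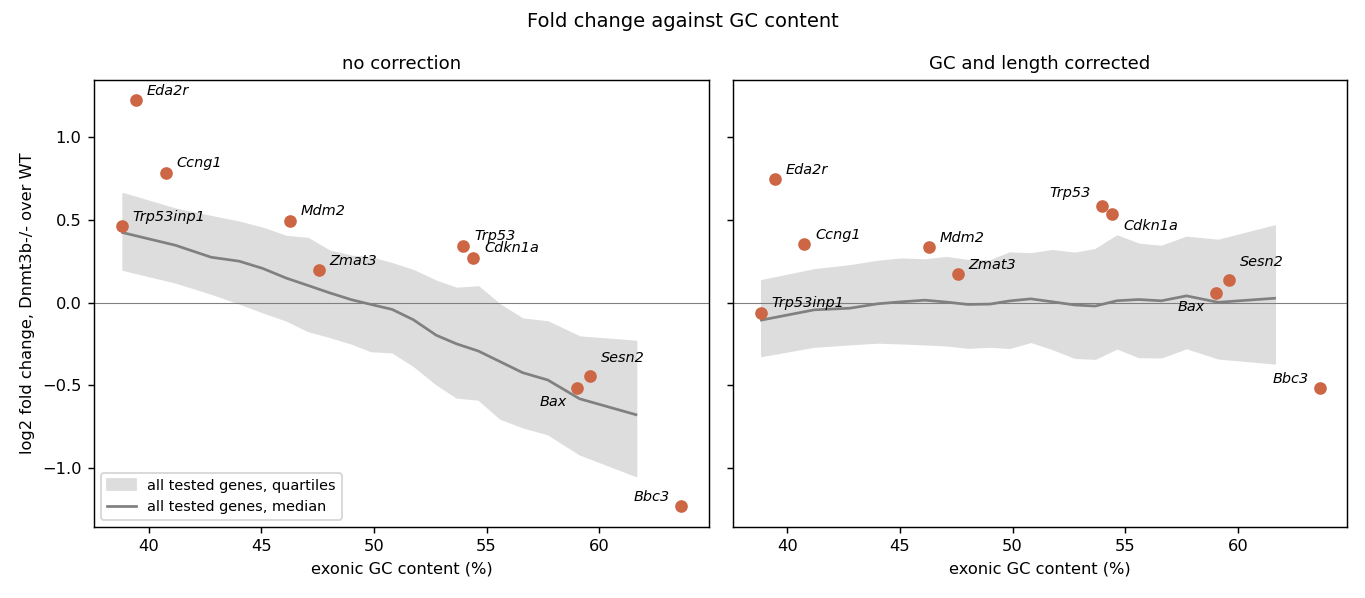
Log2 fold change between the genotypes, Dnmt3b-/- over WT (y axis) against exonic GC content in percent (x axis) for the 10 genes (orange), with the median (line) and quartiles (band) of all tested genes in 20 bins, without correction (left) and with the correction for GC content and length (right). Without correction the line falls from 0.42 to -0.68, with Trp53inp1, Bax and Sesn2 close to it, and with the correction the line is near 0.

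Among the genes whose pattern over the 6 embryos was most like that of Trp53, 1810024B03Rik, Ddhd1 and Ccnjl led with Pearson's r of 0.998, 0.997 and 0.997 on log2 normalized counts. For Cdkn1a they were Myo1d, Dnajc13 and Zfp429, with r of 0.979, 0.975 and 0.973. None of these 6 genes was a member. The r values are descriptions over embryos that share the difference between the genotypes.

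The other genes of the p53 pathway were read from 11 lists of 129 genes, of which 126 passed the filter on low counts. Of these, 28 were higher and 25 lower in Dnmt3b-/- embryos, with a median log2 fold change of -0.01, beside 17.6% and 18.1% of all genes. With the correction for GC content 15 were higher and 19 lower of the 126, beside 1869 higher and 1594 lower of all 15114 genes. No list had all its tested genes called, and 7 of the 11 lists had called genes in both directions. Where counts without 1 embryo are given below, the counts over all genes changed as well. These went from 2654 higher and 2741 lower to 1861 and 1909 without WT embryo 1, and to 1795 and 1791 without Dnmt3b-/- embryo 2.

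Genes of arrest and the cell cycle that p53 activates were lower where they were called, with 0 higher and 3 lower of 8 and a median of -0.31. Btg2, an antiproliferative gene, fell from 1043 ± 69 to 532 ± 86 normalized counts (SD, n = 3 in each genotype), a log2 fold change of -0.97 (adjusted p = 0.00186 by edgeR's quasi-likelihood test) that was -0.99 with the correction for GC content. Sfn, which encodes 14-3-3 sigma, and Gtse1, a G2 regulator, had log2 fold changes of -0.92 and -0.46 and lost their calls with that correction. Psrc1, the most abundant gene of the list by FPKM, was at -0.17 and was not called.

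Of the genes that restrain p53, 3 were higher and 1 lower of 6, with a median of 0.28. Ppm1d, the phosphatase WIP1 that p53 induces, and Rfwd2, the ubiquitin ligase COP1, each had a log2 fold change of 0.38 (adjusted p of 0.0144 and 0.00352 by edgeR). Usp7, which deubiquitinates MDM2 and p53, was at 0.29, and Trim28, a corepressor that binds MDM2, was at -0.39. After that correction for GC content none of the 6 was called, and Trim28 turned to 0.21. Without WT embryo 1 or Dnmt3b-/- embryo 2, 1 gene was higher in place of 3.

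Among the cell death targets 1 was higher and 2 lower of 11, with a median of -0.22. Ei24, an endoplasmic reticulum protein gene induced by p53, rose from 3192 ± 328 to 5532 ± 584 normalized counts, a log2 fold change of 0.79 (adjusted p = 0.00125 by edgeR) that held with the correction for GC content at 0.83. Apaf1, the scaffold of the apoptosome, was lower at -0.37, and at -0.50 with the correction (adjusted p = 0.00839 by edgeR). Siva1, a proapoptotic gene, was at -0.48 and turned to 0.12 with the correction. The count of lower genes was 1 without WT embryo 1, WT embryo 3 or Dnmt3b-/- embryo 1 and 0 without Dnmt3b-/- embryo 2 or 3, and 2 genes were higher without WT embryo 2.

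Targets of repair, metabolism and stress included 2 higher, 2 lower and 15 not called of 19. Polk, a translesion polymerase gene, rose from 563 ± 33 to 986 ± 31 normalized counts (log2 fold change 0.81, adjusted p = 0.00127 by edgeR). Fdxr, the mitochondrial ferredoxin reductase gene, fell from 415 ± 37 to 148 ± 35 (log2 fold change -1.48, adjusted p = 0.00172 by edgeR). Both kept their calls in 16 of 16 alternative fits, with log2 fold changes of 0.46 for Polk and -0.90 for Fdxr under the correction for GC content. Ckap2 at 0.27 and the nucleotide excision repair gene Xpc at -0.29 were not called with the correction for GC content, and Ckap2 turned to -0.08. Rps27l, the most abundant gene of the list, was at -0.18 and was not called, but was called lower with the correction at -0.28. The higher count was 1 without WT embryo 1, WT embryo 2, Dnmt3b-/- embryo 2 or Dnmt3b-/- embryo 3, and the lower count was 1 without any of the embryos except Dnmt3b-/- embryo 1.

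Of the genes of damage sensing and of the activation of p53, 7 were higher and 3 lower of 19 tested, with a median of 0.02. The shares over all genes were 17.6% higher and 18.1% lower. Chek2, the checkpoint kinase gene, rose by a log2 fold change of 0.54 (adjusted p = 0.00180 by edgeR) and Rad50, a subunit of the MRN complex at double-strand breaks, by 0.70 (adjusted p = 0.00154 by edgeR). Hipk2, a kinase of p53, rose by 0.64, and by 1.04 with the correction for GC content. These 3 genes were called in 16 of 16 alternative fits. Nbn, the other tested MRN subunit named by the rule, was at 0.42 and lost its call with the correction (0.14). Mre11a, the MRN subunit not named by the rule, was at 0.003 and not called (adjusted p = 0.977 by edgeR), and at -0.14 with the correction. Rpl5, a ribosomal protein that binds MDM2, was the most abundant gene of the list at 0.21 and turned to -0.15 with the correction. Cdkn2a, which encodes the MDM2 inhibitor ARF, did not pass the filter, with no more than 16 raw counts in an embryo. The 3 lower genes, named after their values were seen, were Trp53bp1, Rpl11 and Atrip, at -0.34, -0.34 and -0.35. Trp53bp1 and Rpl11 stayed called with the correction for GC content, at -0.30 and -0.34 (adjusted p of 0.0198 and 0.0105 by edgeR). Atrip did not. With that correction 6 genes of the list were higher and 4 lower, in part other genes than those called without it. Without WT embryo 1 the list had 1 lower gene in place of 3.

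Of the p53 family, Trp63 was tested and not called (log2 fold change 0.65, adjusted p = 0.121 by edgeR), and Trp73 had no more than 2 raw counts in an embryo. In the BCL2 family 2 were higher and 4 lower of 11, with a median of -0.16. Mcl1, an antiapoptotic member, rose from 9516 ± 598 to 15365 ± 1904 normalized counts (log2 fold change 0.69, adjusted p = 0.00169 by edgeR), and Bok, a proapoptotic one, fell from 405 ± 75 to 121 ± 25 (log2 fold change -1.74, adjusted p = 0.00123 by edgeR). Both were called in 16 of 16 alternative fits, with 0.66 for Mcl1 and -1.09 for Bok under the correction for GC content. The BH3-only genes Bad and Bmf were lower, at -1.18 and -0.59, with adjusted p of 0.0825 and 0.0831 by edgeR after the correction for GC content. Bcl2l11, a further BH3-only gene, was named after its values were seen. It was lower at -0.43 (adjusted p = 0.0107 by edgeR), and at -0.47 with the correction (adjusted p = 0.0114 by edgeR). Bcl2l11 was called in 16 of 16 alternative fits. Bak1, a proapoptotic effector like Bax and the other BCL2 family gene called higher, was named after its values were seen. It was at 0.41 (adjusted p = 0.0240 by edgeR), and at 0.87 with the correction (adjusted p = 0.00684 by edgeR), so that genes of a proapoptotic role were called in both directions. The count of higher genes was 1 without WT embryo 1, Dnmt3b-/- embryo 2 or Dnmt3b-/- embryo 3.

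The apoptosome and caspase genes had 4 higher and 2 lower of 11, with a median of 0.01. Casp9, the initiator caspase of the apoptosome, was lower at -0.60, and at -0.39 with the correction for GC content (adjusted p = 0.0315 by edgeR). Endog, a mitochondrial nuclease gene, fell from 247 ± 26 to 81.6 ± 17.4 normalized counts, a log2 fold change of -1.59 that was -0.84 with the correction (adjusted p = 0.0459 by edgeR). Cycs, the cytochrome c gene, was at 0.55, and Xiap, a caspase inhibitor gene, at 0.32, and neither was called with the correction, where Xiap turned to -0.07.

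The cell cycle genes that are repressed through p21 and the DREAM complex when p53 is active had 6 higher and 8 lower of 28, with a median of -0.02. Cdk1, the mitotic kinase gene, and Cdc20, an activator of the anaphase-promoting complex, were lower at -0.42 and -0.98 (adjusted p of 0.00186 and 0.000491 by edgeR). Mad2l1, a spindle checkpoint gene whose product inhibits CDC20, rose from 9097 ± 920 to 18063 ± 2206 normalized counts, a log2 fold change of 0.99 (adjusted p = 0.000815 by edgeR). All 3 were called in 16 of 16 alternative fits, with -0.51 for Cdk1, -0.63 for Cdc20 and 0.61 for Mad2l1 under the correction for GC content. Mcm2, a replicative helicase subunit, was at -0.37 and Pcna, the sliding clamp, at 0.29, with values of -0.01 for both after the correction for GC content. With that correction 2 genes of the list were higher and 6 lower. Without WT embryo 1 or Dnmt3b-/- embryo 2 the uncorrected counts were 3 higher and 3 lower, and without WT embryo 3 or Dnmt3b-/- embryo 3 they were 4 higher and 4 lower.

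Among the relatives of the EDA2R receptor and its ligand, the signalling adaptor Traf6 was the 1 gene called of 6, at 0.33, and not with the correction (0.18) or without any of the embryos except Dnmt3b-/- embryo 1. Tnfrsf19, the most abundant of them, was at 0.17 and not called. Of 6 paralogs of the members 2 were called, both higher. They were Zmat2, a splicing factor gene (log2 fold change 0.95, adjusted p = 0.00149 by edgeR), and Cdkn1c, the imprinted gene of the cell cycle inhibitor p57 (0.84, adjusted p = 0.00546 by edgeR). Cdkn1c was at 7452 ± 415 normalized counts in WT and 13334 ± 3472 in Dnmt3b-/- embryos, and it was called with a larger fold change under the correction (adjusted p = 0.000858 by edgeR). Both paralogs were called in 16 of 16 alternative fits, unlike Cdkn1a and Zmat3, which were called in none.

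**Figure D4:**
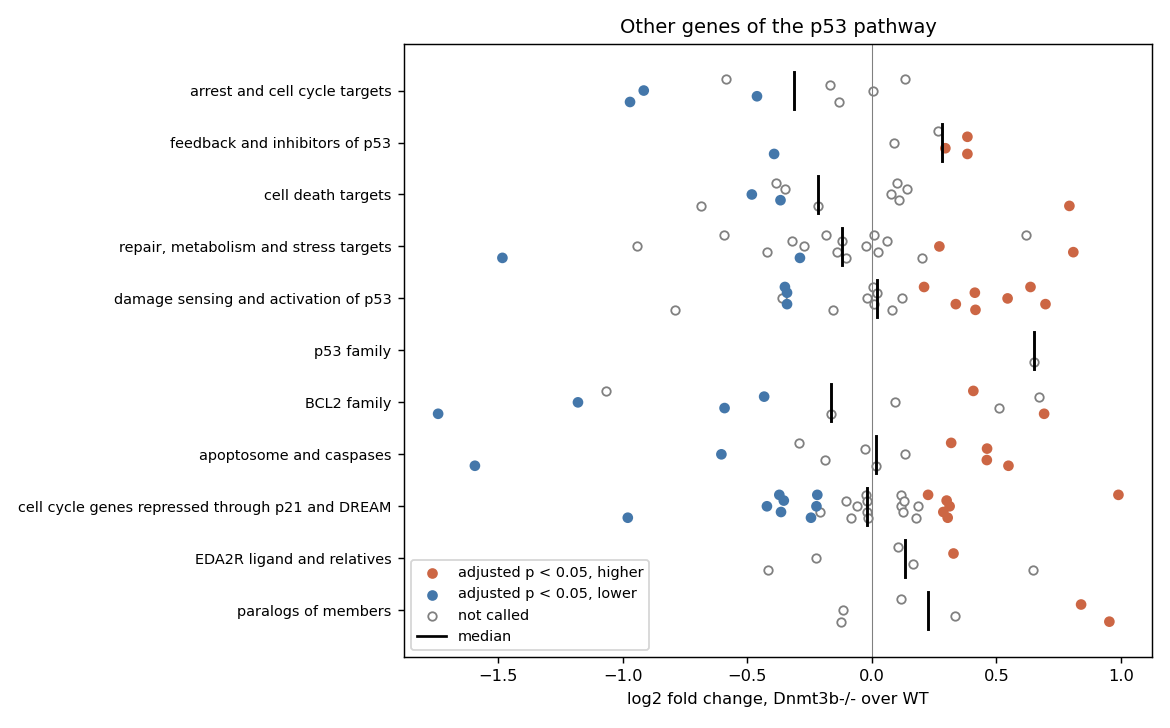
Log2 fold change between the genotypes, Dnmt3b-/- over WT (x axis, no correction) for each tested gene of the 11 p53 pathway lists, coloured where the adjusted p was below 0.05, with the median of each list as a bar. Called genes lie on both sides of 0 in 7 lists, the medians run from -0.31 to 0.65, and the median of 0.65 is that of 1 gene, Trp63.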

How the data were processed

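RNA-Seq of 3 WT and 3 Dnmt3b-/- embryos at E8.5 was analysed, and the methylation libraries of the series were not analysed here. Total RNA was depleted of ribosomal RNA and sequenced as stranded pairs of 75 bases. The raw counts deposited by the authors come from TopHat2 2.0.12 alignments to mm10 and HTSeq 0.6.0 counts in RefSeq exons, with the strand setting not given in the sources used here. The authors' normalized signal (count divided by a DESeq2 1.4.5 size factor), log2 fold change and adjusted p-value columns were also deposited and were not used.

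Counts were TMM-normalized and fitted in R 4.3.3 with edgeR 4.0.16 for the 15114 genes that averaged 10 or more counts, with Benjamini-Hochberg adjustment over all of them. The fit was tested on simulated data. In the corrected fit, natural splines (5 degrees of freedom) of GC content and of log2 length over the exons were subtracted per library. Exon lengths, GC content, positions and sequences came from RefSeq on GRCm38.p6, where 23880 genes matched (99.2%). FPKM was computed from raw counts and exonic length. DESeq2 1.42.0 and limma 3.58.1 were alternatives.

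The members and gene lists were chosen with earlier results of these data known. Named pathway genes are, for each list, up to 4 called genes without overlap with the smallest adjusted p and the most abundant gene. Bak1, Bcl2l11, Trp53bp1, Rpl11, Atrip, Mre11a and genes that did not pass the filter are named besides. The nearest tested neighbours are named for members with a fold above 2, except for 1 that is not reported here, and the 3 genes of most like pattern for Trp53 and Cdkn1a. P-values measure the spread between single embryos, and counting limits cover counting error only.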

Additional observations from a re-analysis of the deposited data

How the results depend on the processing

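Among the members, the correction for GC content and length changed the most calls. It left 2 members higher and 0 lower in place of 5 and 2, also with the replicate block, and 0 in either direction above a fold of 2. It reversed the log2 fold changes of Bax to 0.0587, Trp53inp1 to -0.0606 and Sesn2 to 0.13, with the replicate block to 0.0597, -0.0622 and 0.13. It called 15 pathway genes higher (14 with the replicate block) and 19 lower (13 with the replicate block) in place of 28 and 25. limma on log2(CPM + 1) gave 0 members lower above a fold of 2 in place of 1. Leaving out 1 embryo gave 4 to 5 members higher, 1 to 2 lower, 0 to 1 in either direction above a fold of 2, 18 to 29 pathway genes higher and 15 to 24 lower. The lowest pathway counts were 18 higher and 15 lower without WT embryo 1, and 18 higher and 16 lower without Dnmt3b-/- embryo 2. The counts over all genes fell in these 2 fits as well, from 2654 higher and 2741 lower. They were 1861 and 1909 without WT embryo 1, and 1795 and 1791 without Dnmt3b-/- embryo 2. The count of members lower was 1 without WT embryo 1, WT embryo 3 or Dnmt3b-/- embryo 2. No member above a fold of 2 was higher without WT embryo 2, and none was lower when any 1 of WT embryo 1, WT embryo 3, Dnmt3b-/- embryo 2 and Dnmt3b-/- embryo 3 was left out. The cause was not tested.

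The replicate numbers were not taken as pairs. Same-numbered embryos had correlations of their deviations of -0.05, -0.15 and -0.01, and differently numbered ones of -0.08 to 0.14. With 3 embryos per genotype these values cannot decide whether same-numbered embryos shared a litter. The replicate block alone left 5 members higher and 2 lower, and 2172 and 2239 genes overall in place of 2654 and 2741. It gave 5 lower genes in place of 8 in the list repressed through p21 and DREAM, 1 in place of 2 in the repair list, and 0 higher in place of 1 among the EDA2R relatives. Scaling by total counts moved the median of all genes from -0.03 to -0.11 and changed no call of a member. Over all genes the correction for GC content gave 1869 higher and 1594 lower genes. Dnmt3b was not called with that correction (adjusted p = 0.0628 by edgeR) or without any 1 of the Dnmt3b-/- embryos.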
